A study of Mus musculus with 8 samples.

Results

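Genes of secreted angiopoietin-like proteins and of the lipases that act on plasma lipoproteins were followed in mouse hepatocytes under shear stress. The genes are Angptl4, Angptl6 and Angptl8 and the lipase genes Lpl, Lipc and Lipg, taken by symbol from the deposited tables, where all 6 were found among 17276 genes. Of these 6, 5 passed the filter on low counts and entered the fit across 11747 genes, and Lipg did not. The study compared hepatocytes of wild-type male C57BL/6N mice aged 6 to 8 weeks, exposed to shear stress (4 libraries) or kept static (4 libraries). Shear stress is the drag of a moving fluid on a cell surface. The labels give neither its size nor its duration. Whether replicates stand for separate animals or cultures is also not stated, so that p-values measure only the spread between these libraries, which may be technical.

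Lipoprotein lipase (Lpl) hydrolyses the triglyceride of circulating lipoproteins on the endothelium of muscle and fat, hepatic lipase (Lipc) acts on remnants and high-density lipoprotein in the liver, and endothelial lipase (Lipg) is chiefly a phospholipase of high-density lipoprotein. Angptl4 is a secreted inhibitor of lipoprotein lipase that fasting, hypoxia, glucocorticoids and peroxisome proliferator-activated receptors (PPARs) raise. Angptl8 is a small insulin- and feeding-responsive relative that lacks the fibrinogen-like domain of the family and acts with other members, and Angptl6 is a liver-made member described as opposing weight gain in mice. Adult hepatocytes normally make much Lipc and little Lpl.

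Angptl8, Angptl6 and Lipc all lie on chromosome 9, and the regions around their starts are shown because they let a reader compare 3 members that share a chromosome and for which the table held a window. Each runs from 250 bases before to 50 bases after an annotated start (RefSeq, GRCm38.p6), 5′ to 3′, with matches to any of 5 searched motifs in capitals. The motifs, searched on both strands, were the nuclear receptor core AGGTCA, the glucocorticoid receptor core TGTTCT, the hypoxia response core ACGTG, the TATA box TATAAA and the CCAAT box CCAAT.
Angptl8, chr9:21835260-21835559, plus strand: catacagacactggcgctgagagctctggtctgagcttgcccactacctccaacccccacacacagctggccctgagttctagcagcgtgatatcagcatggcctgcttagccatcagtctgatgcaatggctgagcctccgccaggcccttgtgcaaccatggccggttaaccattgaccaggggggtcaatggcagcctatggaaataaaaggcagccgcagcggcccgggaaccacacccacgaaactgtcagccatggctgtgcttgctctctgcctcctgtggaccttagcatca
Angptl6, chr9:20879661-20879960, minus strand: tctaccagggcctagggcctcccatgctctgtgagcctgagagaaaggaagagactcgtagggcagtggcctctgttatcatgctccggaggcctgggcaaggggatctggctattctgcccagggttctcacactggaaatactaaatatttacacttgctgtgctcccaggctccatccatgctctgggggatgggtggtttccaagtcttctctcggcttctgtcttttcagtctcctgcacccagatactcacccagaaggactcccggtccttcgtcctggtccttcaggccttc
Lipc upstream start, chr9:70952172-70952471, minus strand: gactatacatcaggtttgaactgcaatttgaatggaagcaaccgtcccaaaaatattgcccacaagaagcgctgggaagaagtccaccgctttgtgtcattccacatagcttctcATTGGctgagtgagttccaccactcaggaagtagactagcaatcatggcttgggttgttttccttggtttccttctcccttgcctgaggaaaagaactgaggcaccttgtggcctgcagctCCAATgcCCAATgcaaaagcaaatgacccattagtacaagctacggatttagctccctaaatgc
Lipc downstream start, chr9:70934759-70935058, minus strand: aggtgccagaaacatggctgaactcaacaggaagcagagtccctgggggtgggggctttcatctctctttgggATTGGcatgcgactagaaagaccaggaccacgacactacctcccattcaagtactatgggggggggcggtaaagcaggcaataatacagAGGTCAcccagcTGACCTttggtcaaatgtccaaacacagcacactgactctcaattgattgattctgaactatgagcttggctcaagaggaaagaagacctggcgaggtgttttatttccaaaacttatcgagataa

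No searched motif was in the Angptl8 or Angptl6 window. The upstream Lipc window held CCAAT at -135 (reverse strand), -14 and -7 bases relative to the start, and the downstream Lipc window held it at -177 (reverse strand). The downstream Lipc window also held AGGTCA at -88 and, on the reverse strand, at -76. No match overlapped another. Of 32851 such windows in the table, 16.3% held AGGTCA, 19.0% TGTTCT, 19.6% ACGTG, 13.6% TATAAA and 37.4% CCAAT. These matches describe letters only.

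Estimated counts summed to between 16225843 and 16732203 per shear stress library and to between 15067056 and 17935566 per static library. CPM is a count scaled to its library size, here multiplied by the trimmed mean factor of the fit described below. On that scale 3 counts correspond to between 0.157 and 0.227 CPM. Levels are given below in TPM, which is also corrected for transcript length. Fold changes set shear stress over static and carry their standard error. They come from the edgeR quasi-likelihood test with trimmed mean (TMM) factors, and p was adjusted by the Benjamini-Hochberg method over all tested genes. The fit left the replicate number out except where a block is named. A gene was called at an adjusted p under 0.05. With library totals in place of TMM the median log2 fold change of all tested genes was 0.22, against -0.01 with TMM, so the direction of a smaller change rests on the scaling chosen. The background was high, since 48.6% of all tested genes were called, 24.9% higher and 23.7% lower. In log2 CPM with TMM factors the groups did not overlap for 45.3%. Overlap of the members is given below in TPM, a scale without those factors. With the replicate number as a block, which pairs the libraries, 61.1% were called, 30.1% higher and 31.0% lower. The libraries carried hepatocyte transcripts. The 8 hepatocyte markers summed to between 37344.9 and 52884.8 TPM in shear stress and between 49277.9 and 61957.3 TPM in static libraries, 6 of them were called lower, and their part in the results was not tested. In bulk RNA, fewer cells of a type and less RNA per cell cannot be told apart.

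Angptl4 was the member that rose in the edgeR fit with TMM factors, all 8 libraries and no block. It was the only 1 of the 5 tested members called there, against 48.6% of all tested genes. With the block 3 of the 5 were called, near the 61.1% of all tested genes. The Angptl4 gene lies on the minus strand of chromosome 17 (33774900 to 33781575, GRCm38, Gene ID 57875) with up to 7 exons, and no other annotated gene overlaps it. It stood at 149.5, 96.3, 193.3 and 129.7 TPM in shear stress replicates 1 to 4, against 23.4, 33.6, 53.1 and 40.7 TPM in static replicates 1 to 4. Every shear stress library was above every static library, and each was above the static library of the same number. The means were 142 ± 40.5 TPM and 37.7 ± 12.5 TPM (SD, n = 4 each). The fitted rise was 3.23-fold (log2 1.69 ± 0.29, 95% interval 1.04 to 2.34, adjusted p = 0.00153). A two-sided exact permutation test of log2(TPM + 1) without pairing gave p = 0.0286, and no smaller value is possible with 4 against 4. The lack of overlap had already fixed that value. With pairing, the two-sided exact sign-flip test of the same measure gave p = 0.125, the smallest value possible with 4 pairs. Within the replicate numbers the difference in log2 CPM was 2.47, 1.31, 1.56 and 1.47, so that number 1 had the widest gap, with the lowest static level of the 4. Of the 11747 tested genes, 465 (3.96%) had a larger log2 fold change. By mean level it was gene 877 of 17276 in shear stress and gene 2654 in static libraries.

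**Figure D1:**
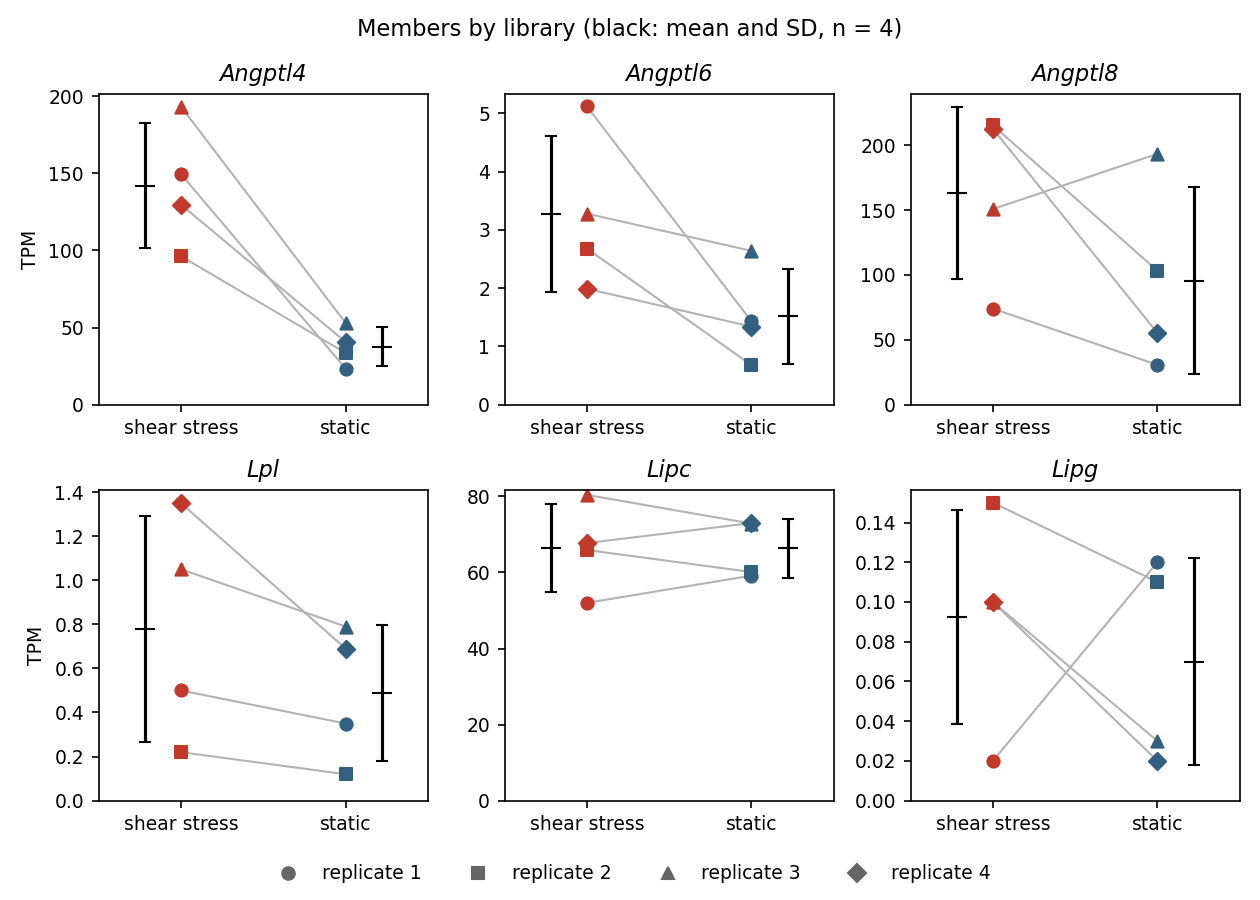
TPM (vertical axes, each starting at 0) of the 6 genes in each library, shear stress left and static right. Lines join libraries with the same replicate number, marker shapes give that number, and black bars are the mean and SD of 4 libraries. Angptl4 has no overlap between groups (96.3 to 193.3 against 23.4 to 53.1 TPM), whereas the other 5 genes overlap.

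Angptl8 had the highest mean level of the 6 genes in both groups and a wide spread between libraries. The gene is on the plus strand of chromosome 9 (21835510 to 21837347, Gene ID 624219, 4 exons). It stood at 74.0, 215.2, 150.7 and 212.6 TPM in shear stress replicates 1 to 4, against 30.6, 103.2, 193.3 and 55.2 TPM in static replicates 1 to 4. The groups overlapped, since static replicate 3 exceeded shear stress replicates 1 and 3, and 3 of the 4 pairs were higher under shear stress. The means were 163 ± 66.5 TPM and 95.6 ± 71.8 TPM. The fit gave a log2 fold change of 0.54 ± 0.54 (95% interval -0.68 to 1.76, adjusted p = 0.434), which was not called. With the block it was 0.75 ± 0.36 (adjusted p = 0.109), and with the block and library totals together it was called (0.98 ± 0.33, adjusted p = 0.0348). The value moved to 1.18 without static replicate 3 (adjusted p = 0.061) and to 0.24 without static replicate 1 (adjusted p = 0.705), so that its size rested on single libraries.

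The whole of Angptl8 lies within Dock6 (chromosome 9, 21799860 to 21852635), which encodes a guanine nucleotide exchange factor and runs on the opposite strand. No annotated exon of Angptl8 overlaps one of Dock6. Whether the reads were counted by strand is not given in the sources used here, so that antisense or intronic Dock6 reads cannot be told from Angptl8 reads. Dock6 stood at 2.46, 7.56, 10.6 and 5.53 TPM in shear stress replicates 1 to 4, against 1.53, 10.5, 13.5 and 8.05 TPM in static replicates 1 to 4. Replicate 1 was lowest and replicate 3 highest for Dock6 in both groups. For Angptl8 replicate 1 was lowest in both groups, but replicate 2 was highest under shear stress and replicate 3 in static libraries. Within replicate numbers 1 to 4 the differences in log2 CPM were 0.52, -0.70, -0.69 and -0.74 for Dock6. Those of Angptl8 were 1.09, 0.86, -0.66 and 1.74, so that numbers 2 and 4 went opposite ways. Dock6 was not called (log2 -0.62 ± 0.60, adjusted p = 0.42). The TPM ratio of Angptl8 to Dock6 lay between 14.3 and 38.4 in shear stress and between 6.86 and 20 in static libraries. What part Dock6 has in the Angptl8 values was not tested.

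Angptl6 was a low-abundance transcript. Its gene is on the minus strand of chromosome 9 (20873808 to 20879822, Gene ID 70726, 6 exons). It stood at 5.12, 2.68, 3.28 and 1.99 TPM in shear stress replicates 1 to 4, against 1.43, 0.68, 2.64 and 1.34 TPM in static replicates 1 to 4. In TPM all 4 pairs were higher under shear stress, but static replicate 3 lay above shear stress replicate 4, and the 2 groups overlapped. The estimated counts behind these values summed to 220.37 and 100.16. The log2 fold change was 0.90 ± 0.46 (95% interval -0.13 to 1.93, adjusted p = 0.13), which was not called, and with the block it rose (0.92 ± 0.34, adjusted p = 0.0365). It was also called without static replicate 3 (1.30, adjusted p = 0.0428) and with limma on log2(TPM + 1) (0.76 ± 0.26, adjusted p = 0.0345), and was 0.55 without shear stress replicate 1 (adjusted p = 0.335). The exact permutation test of log2(TPM + 1) gave p = 0.0571.

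The pairs of Angptl6 were uneven, with differences in log2 CPM of 1.63 and 1.67 in numbers 1 and 2, against -0.01 and 0.34 in numbers 3 and 4. Its counts were not whole in any of the 8 libraries, while those of the other 5 genes were whole in all of them (tolerance 1e-09). A count that is not whole was divided between features by estimate. Which feature shared the Angptl6 counts was not identified, so the Angptl6 level is uncertain to that extent. The last 500 bases of Angptl6 overlap the gene A230050P20Rik on the opposite strand (chromosome 9, 20868642 to 20874307). Whether exons of both genes overlap was not examined, and the part of A230050P20Rik in the Angptl6 counts was not tested. The next gene upstream, Ppan, which encodes a ribosome assembly factor, lies 8447 bases away on the opposite strand and rose (79.1 ± 6.20 TPM under shear stress and 26.6 ± 2.32 TPM in static libraries, log2 1.35 ± 0.09, adjusted p = 2.83e-05). In that fit, without the block, Angptl6 was not called, whereas 48.6% of all tested genes were.

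**Figure D2:**
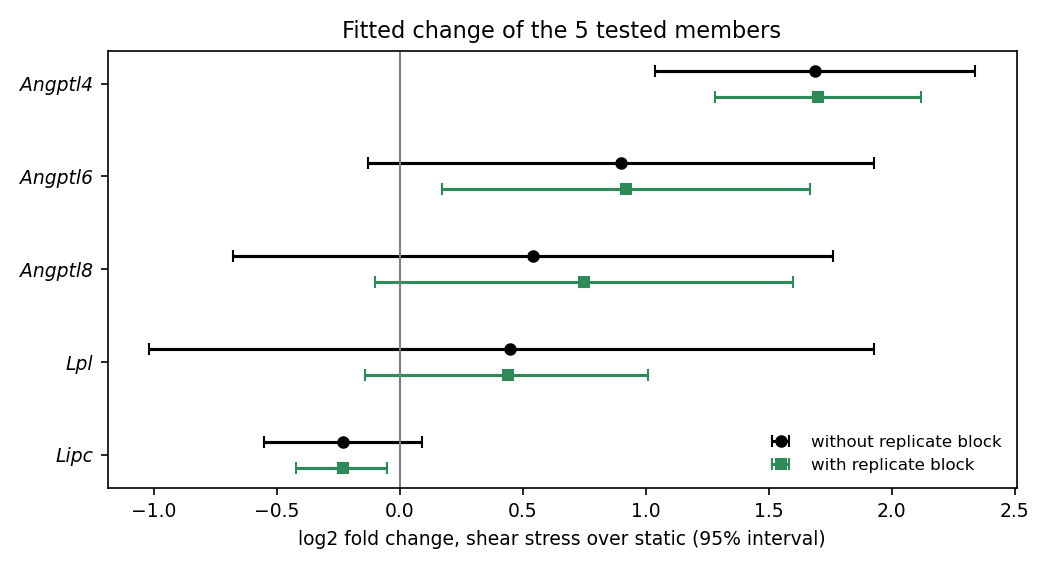
Log2 fold change of shear stress over static (horizontal axis) with its 95% interval for the 5 tested genes, without the replicate block (circles) and with it (squares), both with TMM factors. The Angptl4 interval (1.04 to 2.34) lies above 0 in both fits, those of Angptl6 and Lipc exclude 0 only with the block, and those of Angptl8 and Lpl include 0 in both.

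Among the lipases, hepatic lipase dominated. Lipc (minus strand of chromosome 9, 70798128 to 70952221, Gene ID 15450, up to 9 exons, with 3 noncoding or pseudogene models inside its span) stood at 52.0, 65.9, 80.4 and 67.7 TPM in shear stress replicates 1 to 4, against 59.2, 60.1, 72.8 and 73.0 TPM in static replicates 1 to 4. In TPM the ranges overlapped throughout, and 2 of the 4 pairs were higher under shear stress. In log2 CPM with TMM factors all 4 pairs were lower, with differences of -0.40, -0.08, -0.15 and -0.31. The means were 66.5 ± 11.6 TPM and 66.3 ± 7.68 TPM. With TMM factors the log2 fold change was -0.23 ± 0.14 (95% interval -0.55 to 0.09, adjusted p = 0.202), and with the block it fell (-0.23 ± 0.08, adjusted p = 0.0343). That fall was tied to the scaling: with the block and library totals together the value was -0.01 ± 0.09 (adjusted p = 0.932). Neither end of the interval without the block reaches a 2-fold difference.

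Lpl was present at a trace level. The gene is on the plus strand of chromosome 8 (68880555 to 68906932, Gene ID 16956, up to 11 exons). It stood at 0.50, 0.22, 1.05 and 1.35 TPM in shear stress replicates 1 to 4, from 24, 10, 47 and 65 counts, against 0.35, 0.12, 0.79 and 0.69 TPM in static replicates 1 to 4, from 18, 6, 33 and 36 counts. Each pair was higher under shear stress, but the spread between numbers was wider than the gap within them, and the groups overlapped. The log2 fold change was 0.45 ± 0.65 (95% interval -1.02 to 1.93, adjusted p = 0.593), and with the block 0.44 ± 0.26 (adjusted p = 0.167), neither called. With the block and library totals together it was called (0.66 ± 0.26, adjusted p = 0.0467). Without shear stress replicate 4 the value was 0.02 (adjusted p = 0.982).

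Macrophages are a known source of Lpl in liver. Of the 10 macrophage and Kupffer cell markers, 9 were in the files, and 7 of these (Clec4f, Adgre1, Marco, Timd4, Csf1r, Cd5l and C1qa) averaged under 0.1 TPM. Lyz2, a lysozyme gene of myeloid cells, was at 0.1 to 0.6 TPM in shear stress and 0.1 to 0.47 TPM in static libraries, levels within the range of Lpl or just below it. The list summed to between 25.4 and 78.9 TPM in shear stress and between 27.6 and 68.7 TPM in static libraries. Nearly all of it was Cd68, a lysosomal protein that other cells also make, at 24.5 to 78.0 TPM and 26.7 to 68.1 TPM. Adipocytes, the other classic source, had all 4 of their markers under 0.1 TPM on average, with sums of 0 to 0.11 TPM under shear stress and 0.24 to 0.44 TPM in static libraries. The part of either cell type in the Lpl counts was not tested.

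Lipg (minus strand of chromosome 18, 74939322 to 74961263, Gene ID 16891) was at the limit of detection. It had 1, 6, 4 and 4 counts in shear stress replicates 1 to 4, against 6, 5, 1 and 1 counts in static replicates 1 to 4, or 0.02 to 0.15 TPM and 0.02 to 0.12 TPM. A difference was not detectable at this depth (exact permutation test of log2(TPM + 1), two-sided, p = 0.657). Endothelium is its usual source. The 10 endothelial markers summed to between 3.17 and 12.9 TPM in shear stress and between 4.82 and 15 TPM in static libraries. Vwf alone averaged under 0.1 TPM, at 0 to 0.04 TPM and 0 to 0.01 TPM. Tie1 was at 0.38 to 4.07 TPM and 0.37 to 5.58 TPM, and Cdh5 at 0.44 to 2.42 TPM and 0.41 to 0.88 TPM. The highest library was a static one for Pecam1 and Tie1 and a shear stress one for every other marker. Of the 6 endothelial markers that were tested, Pecam1 was called lower (0.55 to 1.77 TPM and 2.28 to 5.74 TPM) and none higher. The part of endothelial cells in the Lipg counts was not tested.

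The order of mean levels under shear stress was Angptl8, Angptl4, Lipc, Angptl6, Lpl and Lipg, and in static libraries Angptl8, Lipc, Angptl4, Angptl6, Lpl and Lipg. Angptl4 and Lipc thus stood in opposite order in the groups, with Angptl4 above Lipc in 4 of 4 shear stress libraries and below it in 4 of 4 static ones. The TPM ratio of Angptl4 to Lipc, which no scaling between libraries can move, was 2.88, 1.46, 2.40 and 1.92 in shear stress replicates 1 to 4, against 0.396, 0.559, 0.729 and 0.558 in static replicates 1 to 4. The ratio did not overlap between groups (2.16 ± 0.611 and 0.560 ± 0.136), which the opposite order of the 2 genes had already fixed. The exact permutation test (two-sided) could thus give only its smallest value, p = 0.0286. Adjusted over the 2 ratios tested, the other being that of Angptl4 to Angptl8, it was 0.0572. Mean Lipc TPM was alike in both groups, so the ratio largely restates the Angptl4 values and is no separate support. Neighbours whose order differed between libraries were Angptl8 and Angptl4 under shear stress and Angptl8 and Lipc in static libraries, each with the higher mean on top in 2 of 4 libraries. The static ranges of Angptl6 and Lpl, and of Lpl and Lipg, overlapped over libraries, but the order held within 4 of 4 libraries for both pairs.

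**Figure D3:**
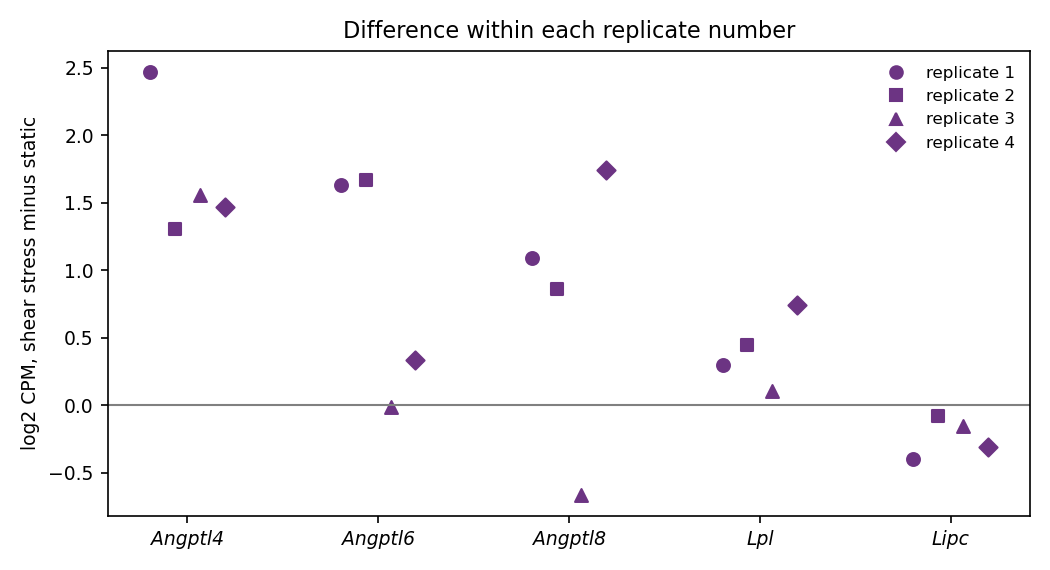
Difference in log2 CPM between the shear stress and the static library of the same replicate number (vertical axis), for the 5 tested genes. Marker shapes give the number. All 4 points of Angptl4 lie between 1.31 and 2.47 and those of Lipc between -0.40 and -0.08, while Angptl8 spans -0.66 to 1.74.

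Genes with the most similar pattern were named by the root-mean-square difference between log2 CPM profiles over the 8 libraries, each centred on its mean, among 9147 tested genes of at least 5 CPM. For Angptl4 they were the kinase gene Frk (difference 0.299 log2 units, 12.2 ± 1.57 TPM under shear stress and 3.95 ± 1.20 TPM in static libraries), Dcbld1 (0.319) and Riox1 (0.339). For Angptl8 they were Rrm2 (0.372), which encodes a subunit of ribonucleotide reductase, Abat (0.379) and Acly (0.382), which encodes the ATP citrate lyase of lipogenesis. For Lpl they were the lipid droplet gene Cidec (0.379), the pyruvate kinase gene Pklr (0.429) and the galectin gene Lgals3 (0.457), and for Angptl6 Mid1 (0.359), Sdf2l1 (0.364) and the claudin gene Cldn3 (0.415). For Lipc they were Minpp1 (0.0516), Pts (0.0931) and Cask (0.103). The small values for Lipc come with a flat profile, and these are likenesses over 8 libraries, with no test.

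Proteins that fold, anchor, activate or cleave the secreted lipases were followed as a list of 21 genes, of which 20 were tested, 5 rose and 4 fell, a share of 45% that lies near the background. The median log2 fold change was -0.12, against -0.01 for all tested genes. The rises included surface proteoglycans that bind lipases and lipoproteins, Sdc1 (114 ± 23.8 TPM under shear stress and 64.7 ± 6.69 TPM in static libraries, log2 0.58 ± 0.14, adjusted p = 0.00815) and Sdc4 (159 ± 18.4 TPM and 94.7 ± 10.7 TPM, log2 0.52 ± 0.13, adjusted p = 0.0104), and the integrin subunit gene Itgav (33.5 ± 3.54 TPM and 17.0 ± 4.19 TPM, log2 0.75 ± 0.16, adjusted p = 0.00352). The other rises, Lmf2 (log2 0.32) and Apoa5 (log2 0.94), an activator of lipoprotein lipase, and the fall of the chaperone gene Canx (log2 -0.27) were named after their values were seen. Sort1, whose product sortilin binds lipoprotein lipase and guides its transport, fell 3.82-fold to 0.788 ± 0.391 TPM under shear stress, against 2.57 ± 0.784 TPM in static libraries (adjusted p = 0.00324). Pcsk7, a convertase gene, fell (8.54 ± 1.0 TPM and 10.5 ± 1.31 TPM, log2 -0.50 ± 0.11, adjusted p = 0.00422), as did Apoe (log2 -0.48 ± 0.13, adjusted p = 0.012).

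Lmf1, the maturation factor that Lpl, Lipc and Lipg all need, was at 30.8 ± 2.99 TPM under shear stress and 30.1 ± 4.76 TPM in static libraries and was not called (log2 -0.21 ± 0.15, adjusted p = 0.277). Furin, the convertase that cleaves angiopoietin-like proteins and lipases, was at 88.3 ± 15.1 TPM and 83.1 ± 16.2 TPM (log2 -0.14 ± 0.14, adjusted p = 0.406). Gpihbp1, the endothelial anchor of lipoprotein lipase, did not pass the filter (0.580 ± 0.473 TPM and 0.235 ± 0.224 TPM). With library totals 6 of the 20 rose and 1 fell, and with the block 6 rose and 7 fell. The 5 rises were 3 without shear stress replicate 3 or static replicate 1 or 4. Of 10 further genes of both families, 8 were in the files and 2 were tested. Of these 2, 1 was called lower, but not with library totals or upper quartile factors, nor without shear stress replicate 1, 2 or 4 or static replicate 3. The phospholipase gene Pla1a was not called (36.1 ± 5.53 TPM and 38.1 ± 7.71 TPM, log2 -0.29 ± 0.18, adjusted p = 0.2), and with the block it fell (log2 -0.28 ± 0.09, adjusted p = 0.0194).

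Receptors and adaptors of lipoprotein uptake numbered 12, of which 10 were tested, 2 rose and 2 fell (40%, median log2 fold change -0.08). Snx17, a sorting nexin that recycles membrane receptors, rose 2.08-fold (11.4 ± 1.01 TPM under shear stress and 4.72 ± 0.690 TPM in static libraries, adjusted p = 0.000399). Scarb1, the receptor of high-density lipoprotein, fell (57.2 ± 8.69 TPM and 70.4 ± 14.9 TPM, log2 -0.52 ± 0.12, adjusted p = 0.00703). Leaving out any 1 library but shear stress replicate 3 left 1 rise of the 2, and with library totals 3 rose and 1 fell.

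Targets of the transcription factors known to act on Angptl4 were followed as 3 lists, to be read beside the 24.9% called higher and 23.7% called lower over all tested genes. Of 18 PPAR targets, all tested, 0 rose and 5 fell (27.8%, median log2 fold change -0.59), and with the block 1 rose and 12 fell. Ehhadh, a gene of peroxisomal fatty acid oxidation, fell 1.68-fold (16.9 ± 2.55 TPM under shear stress and 24.1 ± 5.04 TPM in static libraries, adjusted p = 0.00967), and Acadm, a gene of mitochondrial fatty acid oxidation, fell 1.35-fold (adjusted p = 0.0123). Falls of Cpt1a (log2 -0.88) and Vnn1 (log2 -0.58) were named after their values were seen. With library totals 1 rose and 2 fell, and the 5 falls were 3 without shear stress replicate 4 or static replicate 1. Of 16 glucocorticoid targets, all tested, 1 rose and 3 fell (25%, median -0.46). Fkbp5, a cochaperone of the glucocorticoid receptor, rose 3.36-fold (25.4 ± 1.86 TPM and 6.48 ± 1.58 TPM, adjusted p = 5.50e-05), whereas Sgk1 fell 3.18-fold (adjusted p = 0.00306), Klf9 1.92-fold (adjusted p = 0.00101) and the tyrosine aminotransferase gene Tat 1.80-fold (adjusted p = 0.0348). With the block 1 rose and 6 fell, and the falls were 5 without static replicate 4.

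Of 20 hypoxia targets, 19 were tested, 3 rose and 7 fell (52.6%, median -0.41). The rises were those of Ddit4, an inhibitor of the growth kinase mTORC1 (36.8 ± 2.71 TPM under shear stress and 15.1 ± 0.992 TPM in static libraries, log2 1.05 ± 0.11, adjusted p = 0.000109), of the hexokinase gene Hk2 (1.22 ± 0.597 TPM and 0.0975 ± 0.0618 TPM, log2 3.37 ± 0.55, adjusted p = 0.00109) and of the glucose transporter gene Slc2a1 (54.1 ± 12.8 TPM and 28.2 ± 4.92 TPM, log2 0.72 ± 0.18, adjusted p = 0.00776). Ndrg1 fell 3.29-fold (18.2 ± 7.23 TPM and 51.0 ± 20.6 TPM, adjusted p = 0.0109), the growth factor gene Vegfa 1.81-fold (adjusted p = 0.00248) and the demethylase gene Kdm3a 1.73-fold (adjusted p = 0.0101). With library totals 3 rose and 4 fell.

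Of 18 lipogenic genes that insulin, LXR, SREBP1c or ChREBP drive, as they do Angptl8, 17 were tested, 2 rose and 3 fell (29.4%, median -0.34). Gpam, which begins triglyceride synthesis, rose 2.10-fold (30.7 ± 3.60 TPM under shear stress and 12.4 ± 2.36 TPM in static libraries, adjusted p = 0.000432), and Nr1h3, the gene of LXR alpha, rose 1.51-fold (adjusted p = 0.00663). Mlxipl, the gene of ChREBP, fell 1.56-fold (83.3 ± 16.1 TPM and 112 ± 27.0 TPM, adjusted p = 0.0234), Elovl5 1.31-fold (adjusted p = 0.0451) and Acacb 2.85-fold (adjusted p = 0.0493). With the block 4 rose and 10 fell, and with library totals 3 rose and 0 fell. The 3 falls were 0 without shear stress replicate 1 or 2 or static replicate 3, and 1 without shear stress replicate 4 or static replicate 1.

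**Figure D4:**
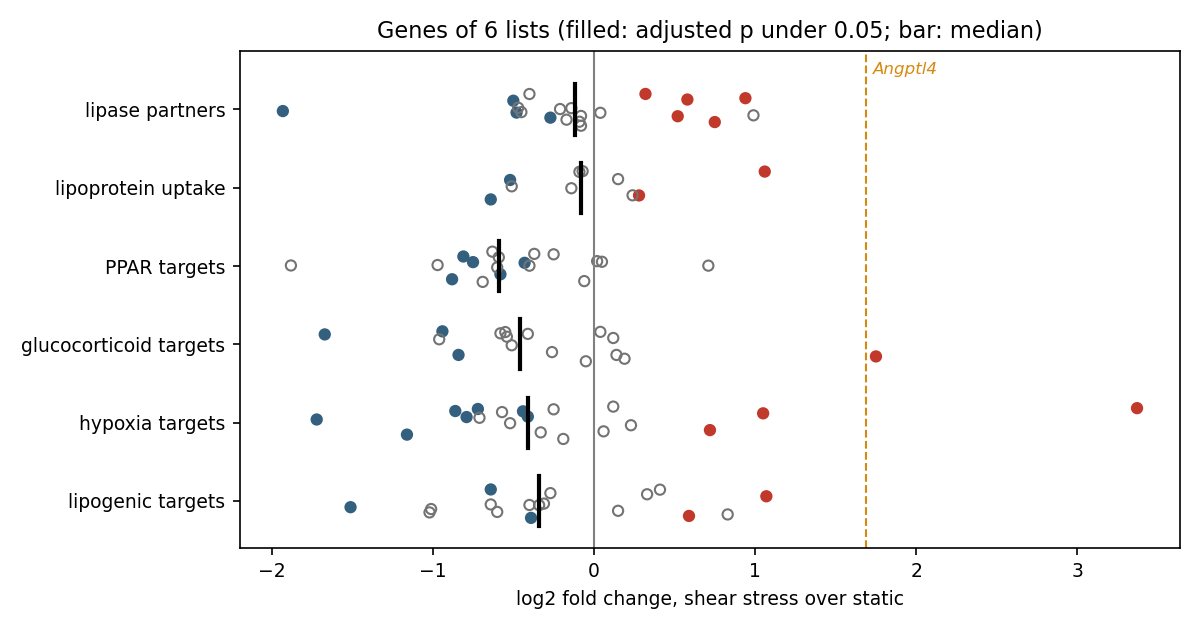
Log2 fold change of shear stress over static (horizontal axis, TMM factors) of the tested genes of 6 lists (rows; vertical spread within a row has no meaning). Filled points were called (red higher, blue lower), open points were not, black bars are list medians and the dashed line marks Angptl4 at 1.69. Medians lie between -0.59 (PPAR targets) and -0.08 (lipoprotein uptake), and 2 listed genes, Fkbp5 and Hk2, lie beyond Angptl4.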

How the data were processed

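The sources were 8 tables of mouse hepatocyte RNA, 1 per library. HISAT, Bowtie2 and RSEM and the build GRCm38 (mm10) are named in the submitters' processing notes, whereas versions, annotation and use of strand were not given in the sources used here. The read counts are expected counts, estimated by the authors, and the TPM values were also computed and deposited by the authors, per the file headers; between 9.31% and 10.7% of counts per library were not whole. Expected counts were rounded, filtered with filterByExpr and tested across all genes with edgeR 4.0.16 (robust glmQLFit and glmQLFTest, TMM factors) in R 4.3.3. DESeq2 1.42.0, limma 3.58.1 on log2(TPM + 1) and log2(TPM + 0.1), other scalings, no filter and leaving out each library were alternatives. Simulated counts were also run through the steps. They held no effect of the replicate number and few changed genes, so they cannot judge the pairing or the scaling used here. Coordinates come from RefSeq (GRCm38.p6) and overlaps from GENCODE models of the same build.

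The members and lists were chosen with earlier results of these data known. Named are all members, up to 3 called genes of each list and direction by smallest p, and 3 genes of most similar pattern per tested member, with the convertases, anchors and receptors that sentences turn on. Some genes that this rule names are not reported here. After removal of group means, libraries with the same replicate number correlated at r = 0.679, 0.642, 0.560 and 0.467 over 8446 genes. Those with different numbers correlated at -0.0178 or less, but removing group means itself lowers these values. The numbers were taken as pairs in the block fits, in the differences by number and in the sign-flip test of Angptl4. The main fit and the permutation tests took no account of them. What a number stands for is not stated in the labels. No test of a list was run.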

Additional observations from a re-analysis of the deposited data

How the results depend on the processing

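Angptl4 kept its direction and its call under every alternative run, with log2 fold changes between 1.53 and 1.92 when 1 library was left out (adjusted p between 0.00125 and 0.00564) and between 1.68 and 1.93 under the other scalings, filters and tests. No called member changed direction, while Lipc was at -0.00 with both limma fits. Angptl6 was called with the replicate block (0.92), with limma on log2(TPM + 1) (0.76) and log2(TPM + 0.1) (1.11), and with the block and library totals together (1.15), an alternative added after the data had been seen. Its values without 1 library lay between 0.55 and 1.30. Lipc was called with the block (-0.23) and not with the block and library totals (-0.01), and lay between -0.33 and -0.13 without 1 library. With the block and library totals Angptl8 (0.98) and Lpl (0.66) were called, and without 1 library they lay between 0.24 and 1.18 and between 0.02 and 0.78. The replicate block changed no other call of a member.

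Calls in the lists depended on scaling and pairing. PPAR targets had 3 calls with library totals, upper quartile factors and both limma fits, 13 with the block, 10 with the block and library totals, and 3 to 6 without 1 library. Lipogenic genes had 3 with library totals and limma on log2(TPM + 1), 2 with upper quartile factors, 14 with the block, 11 with the block and library totals, and 2 to 5 without 1 library. Glucocorticoid targets had 7 with the block, alone or with library totals. Hypoxia targets had 6 with both limma fits. The further genes of both families had 0 with library totals, upper quartile factors and both limma fits, 2 with the block, and 0 to 1 without 1 library. Over all genes, calls numbered 7176 with the block and between 4660 and 5518 without 1 library. Depth limits Lipg most, at 1 to 6 counts per library, and it was outside the filtered fits, so that no replicate block or other scaling was fitted for it.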

Other observations

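The TPM ratio of Angptl4 to Angptl8, the inhibitor known from fasting to the one known from feeding, was 2.02, 0.447, 1.28 and 0.610 in shear stress replicates 1 to 4, against 0.765, 0.325, 0.275 and 0.738 in static replicates 1 to 4. The groups overlapped, 3 of 4 pairs were higher under shear stress, and the exact permutation test (two-sided) gave p = 0.171, with the same value after adjustment over the 2 ratios. The TPM ratio of Lipc to Lpl lay between 50.2 and 300 in shear stress and between 92.2 and 501 in static libraries, and it was highest in replicate 2 of both groups, where Lpl had 10 and 6 counts.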
